A study of Mus musculus with 2 samples.

Results

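The axon guidance genes described here are the Eph receptors and ephrins, the semaphorins with their plexin and neuropilin receptors, the Slits and Robo receptors, and the netrins with Dcc and the Unc5 receptors. Members were matched by gene symbol alone, a rule that uses no measured value but was set with earlier results of these data known. Of the 55536 genes of the quantification tables, 69 matched. They comprise 35 ligands and 34 receptors. The tissue was limb at embryonic day 12.5 from healthy B6NCrl mice of both sexes, for which no genotype or treatment is given. The single group holds 2 biological replicates, each a pool, with limbs of 88 embryos in replicate 1 and of 68 embryos in replicate 2. Oligo-dT primed cDNA from 10 ng of RNA, with ERCC spike-ins, was sequenced for either pool. There is no group to compare against, so the results are levels, differences between genes, and differences between these libraries. The tables do not separate fore- from hindlimbs, nor cell types, so a gene's level in many cells at low abundance and in few cells at high abundance cannot be told apart.

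These families carry signals that tell a growing axon, a migrating cell or a vessel sprout where to go and where to stop. Ephrins are tethered to the cell surface and signal on contact through Eph receptor tyrosine kinases, whereas Slits, netrins and class 3 semaphorins are secreted. In the developing limb they are known for steering motor and sensory axons, for sorting arteries from veins, and for placing muscle precursors and patterning the mesenchyme.

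Depth was close to equal, with 29633457 expected reads on genes in replicate 1 against 30118921 in replicate 2. Levels are given as deposited TPM, a transcript's share of all transcripts after correction for its length and the library's depth, for the GENCODE M21 annotation on mm10. Values in brackets or pairs follow the order replicate 1, replicate 2. Markers of the labelled tissue were present, with 7 of 7 limb mesenchyme markers at 1 TPM or more in both libraries. So were markers of cells that share the limb, with 7 of 7 for endothelium, 5 of 5 for muscle, 5 of 5 for epithelium, 5 of 5 for macrophages, 5 of 6 for cartilage, 5 of 6 for Schwann cell precursors and 6 of 8 for neurons and axons.

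Of the 69 guidance genes, 58 reached 1 TPM in both libraries, against 27.3% of all genes and 58.1% of the 22028 protein-coding genes. At 10 TPM in both libraries there were 36 members, and 17 reached 30 TPM, with no share over all genes given at these levels. The members summed to 1462 TPM in replicate 1 and 1407 TPM in replicate 2. Just inside the 1 TPM line were Sema3e (1.55, 1.07), Dcc (1.44, 1.27) and Ntn4 (1.17, 1.45), and just outside it was Plxnc1, at 0.99 TPM in replicate 1 and 1.02 TPM in replicate 2. The other 10 members below the line were Epha6, Epha8, Epha10, Sema3g, Sema7a, Plxnb3, Slit1, Robo3, Ntn5 and Unc5a.

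**Figure D1:**
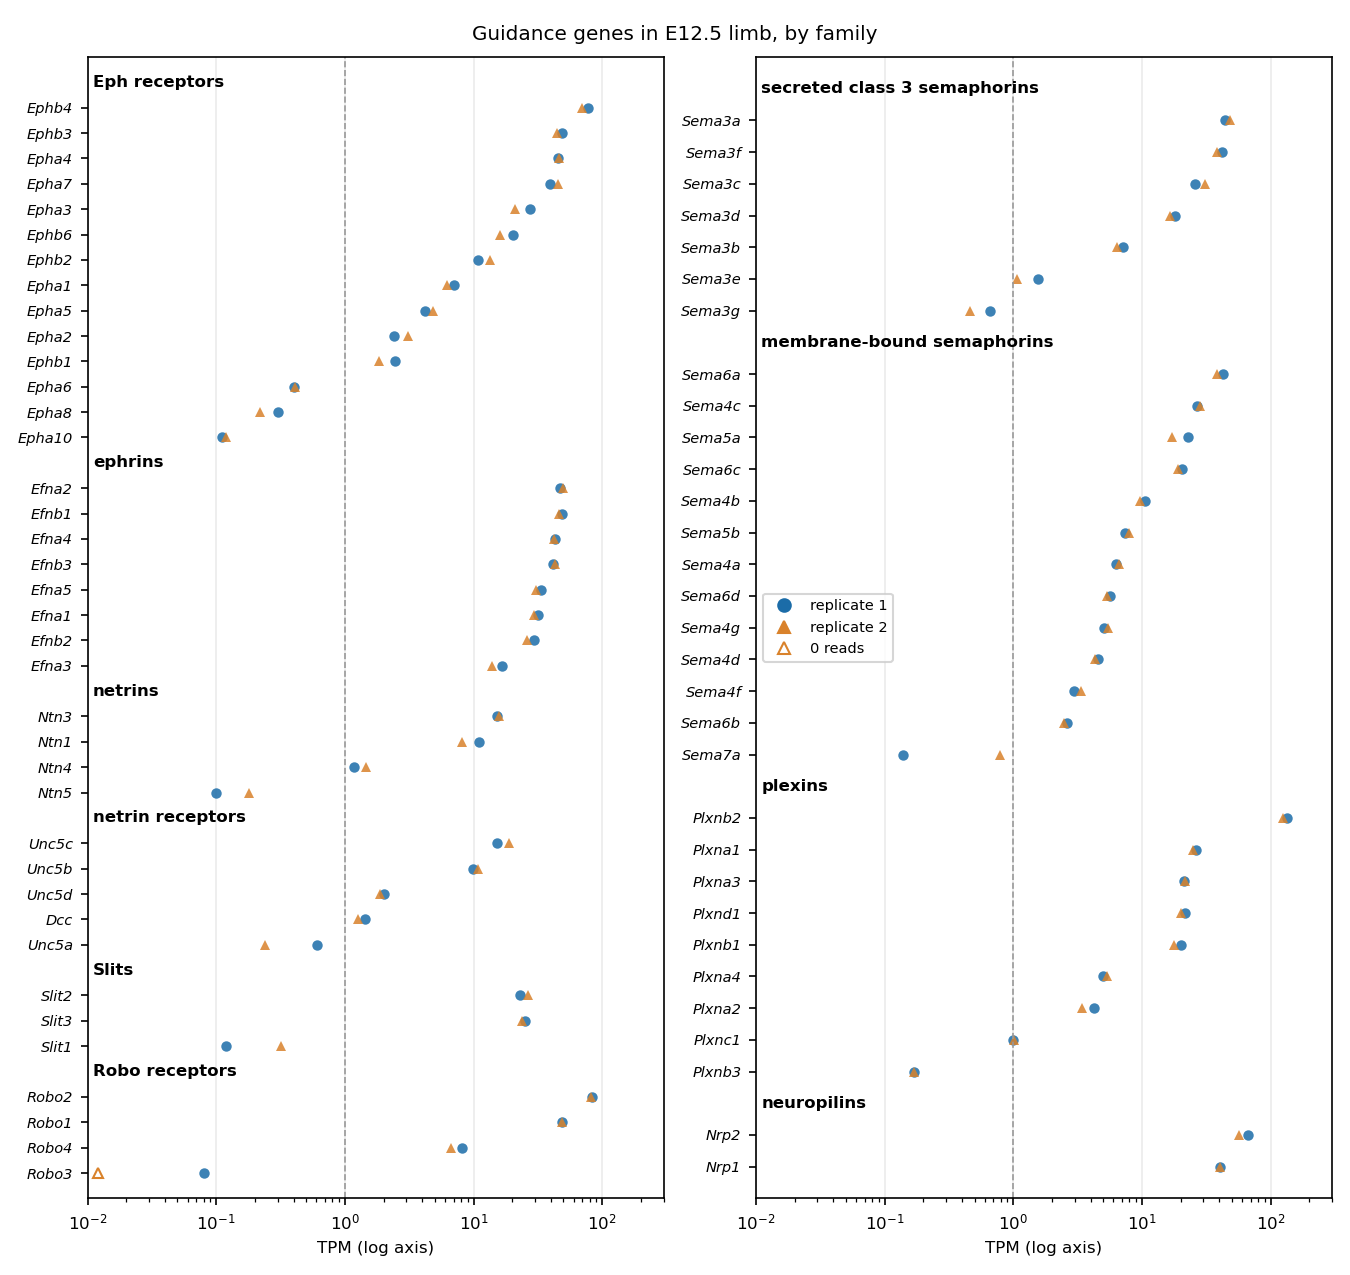
TPM of all 69 guidance genes (log axis) in replicate 1 (circles) and replicate 2 (triangles), grouped by family and ordered by mean level, with 1 TPM as a dashed line. An open triangle at the left edge marks Robo3, which had 0 reads in replicate 2. All 8 ephrins lie to the right of 10 TPM, whereas the Eph receptors reach below 1 TPM.

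The ephrins were evenly expressed. All 8 were detected, and their means ran only from 15.3 TPM for Efna3 to 48.4 TPM for Efna2. The A-class ephrins, which are held in the membrane by a GPI anchor, summed to 172 TPM in replicate 1 and 166 TPM in replicate 2. Efna2 led them at 47.1 and 49.6 TPM, followed by Efna4 at 43.0 and 42.4 TPM. Efna5, a repellent of axons in many tissues, stood at 33.3 and 30.5 TPM. Efna1 lay at 31.6 and 29.4 TPM.

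The B-class ephrins cross the membrane and can also signal into the cell that carries them. Their sum was 120 TPM in replicate 1 and 116 TPM in replicate 2, over 3 genes. Efnb1, an X-linked gene whose human counterpart is mutated in craniofrontonasal syndrome, was at 49.0 and 46.5 TPM. Efnb3 was at 41.6 and 43.3 TPM. Efnb2, the ephrin of arteries, was the lowest B-class ephrin at 29.8 and 25.8 TPM.

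To decide whether genes differed, the log2 ratio had to have the same sign in both libraries. Its smaller size also had to exceed the spread, the 95th percentile of the difference between the libraries among the 500 genes nearest in level. By this rule Efna2 stood 1.52-fold above Efna5, and Efnb1 stood 1.72-fold above Efnb2. Efna1 and Efna5 differed by 1.05-fold, inside the spread. In the order of levels, the neighbours Efna2, Efnb1, Efna4 and Efnb3 did not differ beyond the spread either. The step from Efnb3 down to Efna5 was past it, at 1.33-fold.

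Eph receptors covered a far wider range, with 11 of 14 detected and family means from 0.12 to 73.5 TPM. Ephb4, the vein-side partner of Efnb2, was the highest at 77.8 TPM in replicate 1 and 69.3 TPM in replicate 2. It exceeded its ligand Efnb2 by 2.65-fold, past the spread. Ephb3 followed at 48.9 and 44.2 TPM, 1.58-fold below Ephb4 and also past the spread.

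Among the A-class receptors Epha4 led. It is the receptor that sends limb motor axons into the dorsal nerve branch and, unusually, binds ephrins of both classes. Its level was 45.7 TPM in replicate 1 and 46.0 TPM in replicate 2. Epha7 was at 39.5 and 45.1 TPM, and these receptors did not differ beyond the spread. Epha3, at 27.5 and 20.9 TPM, lay 1.91-fold below Epha4, past the spread. Ephb2 (10.7, 13.5) was 3.86-fold below Ephb3, the B-class receptor most often studied together with it.

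The middle of the family holds Ephb6, whose kinase domain is inactive, at 20.5 and 16.1 TPM. Epha1, Epha5, Epha2 and Ephb1 had means between 2.13 and 6.62 TPM. In the order of levels none of the neighbours from Epha1 down to Ephb1 differed beyond the spread, except that on coding transcripts Epha1 was 4.01-fold above Epha5, past the spread. Below the line were Epha6, with 24 and 23 reads, Epha8 (27, 20), and Epha10, another kinase-inactive receptor, with 10 and 11 reads. Summed, A-class receptors reached 127 TPM in each library and B-class receptors 160 and 145 TPM. Ephrins over Eph receptors gave 1.02 and 1.04 in the 2 libraries.

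Epha1 carries a caveat of position, since 6.01% of its exon bases overlap Zyx on the opposite strand. Zyx stood at 85.2 and 68.7 TPM, against 7.04 and 6.20 TPM for Epha1. Exons of 18 members overlap another gene, 15 of them on the opposite strand and 4 on the same strand. Whether the counting used strand is not given in the sources used here, so reads of such overlaps cannot be told apart.

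Class 3 semaphorins are the secreted ones, and their signal usually passes through a neuropilin paired with a plexin. Sema3a, which repels axons through Nrp1, was at 44.1 TPM in replicate 1 and 48.6 TPM in replicate 2. Sema3f, which acts through Nrp2, was at 41.8 and 38 TPM. The difference between them, 1.16-fold, was inside the spread. Sema3c (26.0, 30.7) was 1.64-fold below Sema3a, past the spread.

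Sema3d followed at 18.2 and 16.5 TPM. It was 13.5-fold above Sema3e, a vascular semaphorin that binds Plxnd1 without a neuropilin. Sema3b was at 7.12 and 6.43 TPM. Sema3g, the lowest of the class, had 0.66 and 0.46 TPM on 58 and 41 reads.

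Membrane-bound semaphorins, of classes 4 to 7, had 12 of 13 members detected. Sema6a led at 43.0 TPM in replicate 1 and 38.5 TPM in replicate 2, and was 7.42-fold above Sema6d, or 3.34-fold on coding transcripts. Sema4c, a ligand of Plxnb2, was at 26.6 and 28.1 TPM. Sema5a followed at 23.0 and 17.2 TPM, and Sema6c at 20.6 and 18.9 TPM. Sema4c was 6.18-fold above Sema4d, the ligand of Plxnb1, and Sema5a was 2.59-fold above Sema5b, all past the spread. With the older GENCODE M4 tables the log2 ratio of Sema5a over Sema5b was 0.83 and inside the spread. Below Sema4b, from Sema5b down to Sema6b, no neighbours in the order differed beyond the spread. Sema7a, the GPI-anchored semaphorin that binds Plxnc1, had 6 reads in replicate 1 and 21 in replicate 2 (0.14, 0.79), the least certain level of the class.

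The plexins were dominated by Plxnb2, which at 132.91 and 125.29 TPM was the most abundant member of all by gene-level TPM. Its mean of 129 ± 5.39 TPM (SD, n = 2) placed it at rank 1238 among protein-coding genes. Plxnb2 was 6.84-fold above Plxnb1 (20.1, 17.7). The receptors of class 3 and class 6 semaphorins followed, with Plxna1 at 26.1 and 25.2 TPM and Plxna3 at 21.1 and 21.8 TPM. Plxna1 was 6.69-fold above Plxna2 (4.26, 3.44), past the spread.

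Plxnd1, known for its role in endothelium, was at 21.5 and 20.1 TPM, 16.1-fold above its ligand Sema3e. Plxna1, Plxna3, Plxnd1 and Plxnb1 lay so close that no neighbours among them differed beyond the spread at the gene level. On coding transcripts Plxna3 was 2.04-fold below Plxna1 and 1.48-fold below Plxnd1, both past the spread. Plxnc1 rested on 141 and 146 reads. Plxnb3, a receptor for Sema5a, was the lowest plexin at 0.17 TPM in each library.

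Both neuropilins were high. Nrp2 reached 67.3 TPM in replicate 1 and 56.4 TPM in replicate 2, and Nrp1 reached 40.7 and 40.4 TPM. Nrp2 was above Nrp1 by 1.52-fold, past the spread. All semaphorins together stood at 298 and 291 TPM, which gave a ratio over plexins of 1.28 in replicate 1 and 1.32 in replicate 2.

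In the Slit and Robo families the receptors outweighed the ligands. Robo2 stood at 82.8 and 81.6 TPM and Robo1 at 48.5 and 49.1 TPM, and Robo2 was 1.68-fold above Robo1, past the spread. Robo4, the endothelial Robo, was 6.64-fold below Robo1, at 8.08 and 6.70 TPM. Robo3, which lets commissural axons cross the midline of the spinal cord, had 6 reads in replicate 1 and 0 in replicate 2, where a limit of 3 reads corresponds to 0.0451 TPM.

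Slit2 was at 23.0 TPM in replicate 1 and 26.3 TPM in replicate 2. Slit3 was at 25.1 and 23.7 TPM, and their order changed between the libraries, a difference inside the spread. Slit2 exceeded Slit1 by a log2 ratio of 7.58 in replicate 1 and 6.36 in replicate 2, past the spread. On coding transcripts the ratios were 6.85 and 5.03. Slit1, which is known mainly from the nervous system, had 10 and 25 reads (0.12, 0.32). The ratio of Slits over Robo receptors was 0.345 and 0.366.

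Netrins summed to 27.6 and 25.6 TPM, below the Slits at 48.2 and 50.3 TPM. On protein-coding transcripts alone that order held only in replicate 2, with 24.9 and 19.5 TPM for netrins against 23.6 and 24.4 TPM for Slits. Ntn3 was the highest by gene-level TPM at 15.2 and 15.8 TPM, and 1.74% of its exon bases overlap Tbc1d24 on the same strand (7.77, 5.32). Ntn1, the canonical attractant of axons and a guide of vessels, was at 11.1 and 8.17 TPM. The neighbours Ntn3 and Ntn1 did not differ beyond the spread. Ntn1 exceeded Ntn4, which binds laminin in basement membranes, by 7.31-fold. Ntn4 rested on 64 and 49 reads. Its complete coding transcript was at 0.87 and 0.57 TPM, and a coding transcript of 582 nt annotated as incomplete at 0.29 and 0.87 TPM. Each alone was under 1 TPM. Ntn5 rested on 3 and 5.36 expected reads.

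Among netrin receptors the repulsive Unc5 family outweighed Dcc, the receptor for attraction. Unc5c was at 15.3 and 18.9 TPM and Unc5b, an endothelial Unc5, at 9.94 and 10.8 TPM. Unc5c exceeded Dcc by 12.6-fold and Unc5b exceeded it by 7.65-fold, both past the spread. Unc5d was at 2.00 and 1.88 TPM, and Unc5a was the lowest at 0.61 and 0.24 TPM on 32 and 18 reads. Neo1, a Dcc-related netrin receptor that the symbol rule does not include, was at 52.1 TPM in replicate 1 and 45.9 TPM in replicate 2. Netrins over Dcc and the Unc5 receptors gave 0.941 and 0.774. On coding transcripts this ratio was 1.06 and 0.847, so the larger side changed between the libraries. With Neo1 counted among the receptors, a choice made after seeing the data, the gene-level ratio was 0.339 and 0.324. Across the 26 pairs of genes named for comparison, 22 differed beyond the spread. Over the 58 neighbouring pairs that could be evaluated in the order of levels, 24 did. No share over other pairs of genes is given, and the neighbours were ordered by the same levels. Neither count can therefore be called particular to guidance genes.

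**Figure D2:**
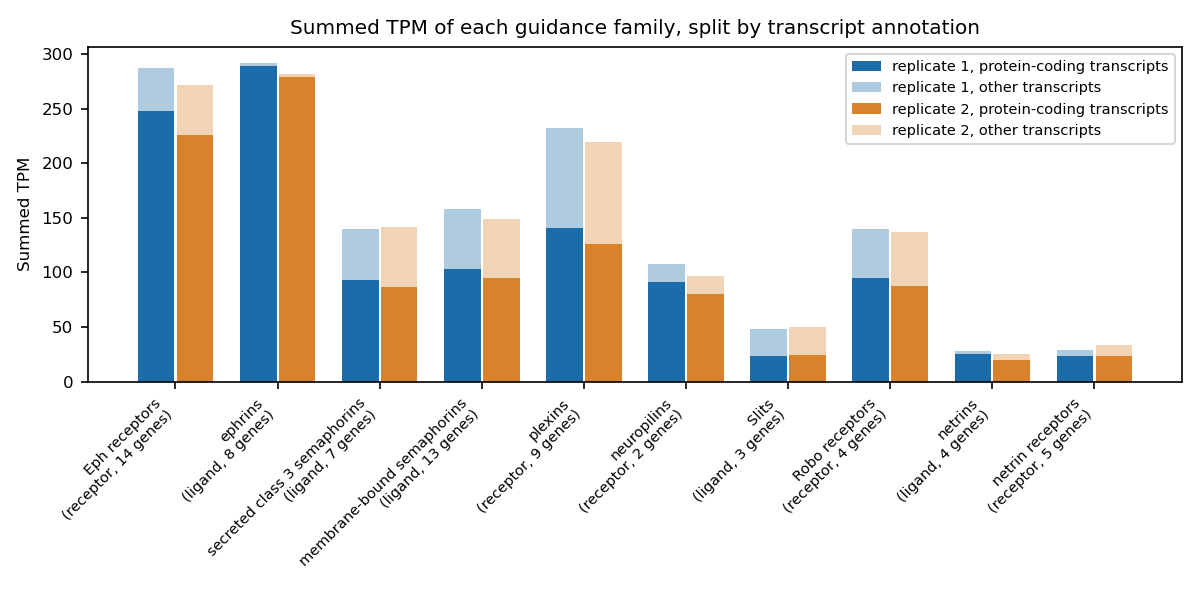
Summed TPM of each family (linear axis from 0) in replicate 1 (blue) and replicate 2 (orange), with protein-coding transcripts in full colour and other transcripts of the same genes in pale colour. The ephrins are almost wholly protein-coding, at 99.1% of their TPM, while the Slits reach 48.7%.

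Gene-level TPM counts every annotated transcript, including ones that do not encode the protein, such as retained introns. Over the 58 detected members a median of 85.9% of TPM belonged to transcripts annotated as protein-coding, against 90.8% over all protein-coding genes detected. The share was under 75% for 23 of the 58 members, against 28.9% of protein-coding genes detected. It was over 95% for 21 of the 58, for which no share over all genes is given. Ephrins held 99.1% and B-class Eph receptors 95.6%. A-class Eph receptors held 71.5%, plexins 59.1% and Slits 48.7%. Counted as reads instead of TPM, the members' median was 95.7% and 9 members were under 75%. No share by reads over all protein-coding genes is given for comparison.

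Plxnb2 is the clearest case. Its gene-level TPM of 132.91 and 125.29 split into 67.7 and 58.7 TPM of protein-coding transcripts and the remainder, most of it in a single short transcript. That transcript is 834 nt long, is annotated as a processed transcript, and held 39.6% and 36.7% of the gene's TPM. By reads, 89.5% of Plxnb2 belonged to coding transcripts. By coding TPM it was 3.67-fold above Plxnb1, still past the spread, but below Ephb4, which had 77.7 and 68.9 TPM of coding transcripts.

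Coding shares under 50% were also found for Epha7, Epha5, Slit2, Sema6a, Sema4g and Plxna3. Sema6a had 19.0 and 13.4 TPM of coding transcripts, below Sema4c at 25.8 and 26.7 TPM. For Epha7 the coding part was 21 and 20.8 TPM, so that Epha4 exceeded it by 1.73-fold, past the spread. Slit2 had 10.4 and 10.5 TPM of coding transcripts and Slit3 13.1 and 13.6 TPM, a difference inside the spread. On coding transcripts Unc5b and Unc5c averaged 10.1 and 9.52 TPM, a difference inside the spread. Robo2 (51.9, 48.9) and Robo1 (36, 33) kept their order on all coding transcripts. Part of the Robo2 value lay in coding transcripts annotated as incomplete. Its largest complete coding transcript was at 13.0 and 13.2 TPM, below that of Robo1 at 35.5 and 32.8 TPM. By reads, 59.8% of Robo2 and 87.7% of Robo1 belonged to coding transcripts. The order of these receptors therefore depends on which transcripts are counted.

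**Figure D3:**
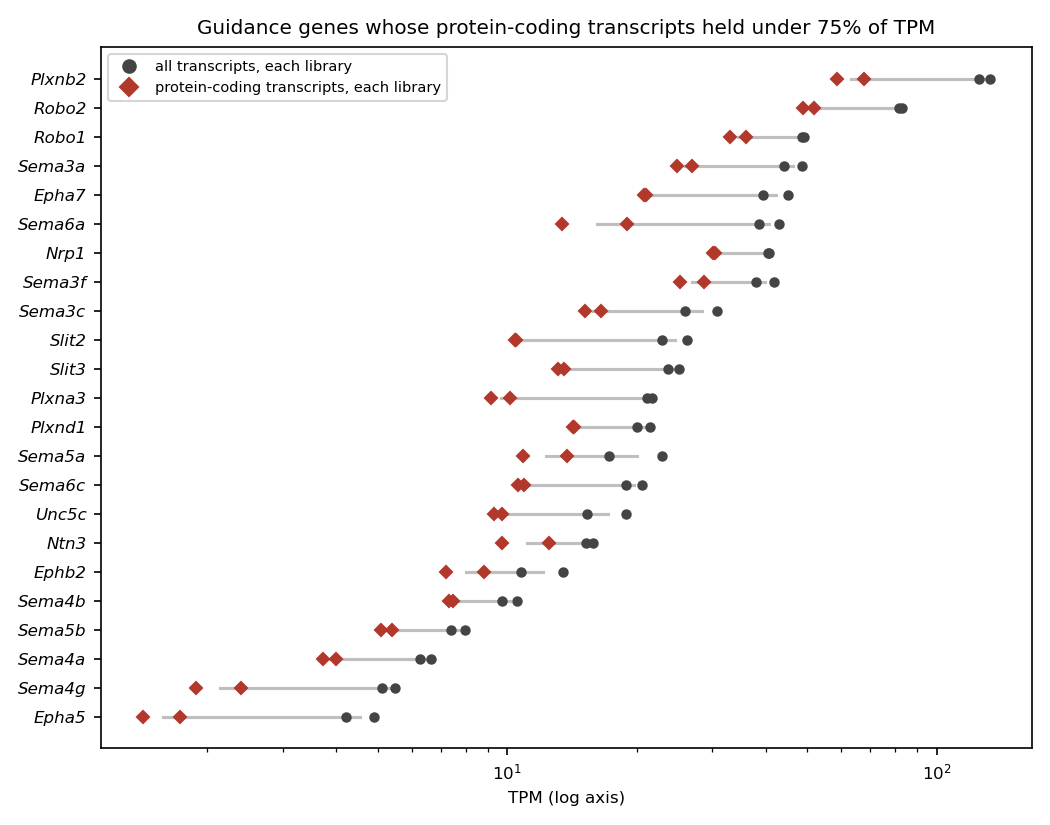
The 23 detected guidance genes with under 75% of TPM in protein-coding transcripts, with gene-level TPM (grey circles) and protein-coding TPM (red diamonds) of each library on a log axis and a line joining the means. Plxnb2 drops from a mean of 129 TPM to 63.2 TPM and stays the highest of these genes.

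A transcript other than the leading one held 25% or more of TPM in both libraries in 10 of the 58 detected members, against 19.6% of all detected genes. These were Epha7, Ephb2, Slit3, Sema4c, Sema4g, Dcc, Ntn4, Nrp2, Plxnb2 and Sema3c. In Sema3c that was a retained intron, with 35.6% and 41.3% of TPM. In Slit3 it was a processed transcript of 459 nt, with 34.3% and 35.1%. In Sema4g a retained intron held 35.3% in replicate 1 and led the gene in replicate 2 at 45.5%. In Sema4c it was a further coding transcript, with 26.5% and 32.2%, whose coding length of 2502 nt equals that of the leading one. Coding choices within these genes are described next from complete protein-coding transcripts, without those annotated for nonsense-mediated decay, and the shares are the authors' estimates per transcript, for which no test between libraries was made.

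Nrp2 showed a nearly even choice of tail. The gene is known to make receptors with alternative ends, Nrp2a, whose tail binds the adaptor Gipc1, and Nrp2b, whose tail differs. Transcripts with the Nrp2b tail held 48.3% of classified coding TPM in replicate 1 and 47.2% in replicate 2. The forms differ over their whole last coding exons, of 278 nt for Nrp2b and 302 nt for Nrp2a. Only the last 60 coding bases of each, from the GENCODE M21 transcripts, are shown. The codons of the last 3 residues are in capitals. The first lies at chr1:62795927-62795986 and the other at chr1:62815575-62815634 (mm10, plus strand), each in the last coding exon.
Nrp2b end: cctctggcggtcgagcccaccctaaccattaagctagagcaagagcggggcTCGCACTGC
Nrp2a end: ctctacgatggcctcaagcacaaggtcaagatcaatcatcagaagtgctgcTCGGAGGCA
The expected counts behind the 2 groups of transcripts were 2565 and 4027 in replicate 1, and 2148 and 3486 in replicate 2. Gipc1 itself stood at 140 and 147 TPM.

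Just before the tail, Nrp2 also varies by short in-frame inserts that set the spacing next to the membrane. A 15-nt extension at chr1:62786302-62786316 was in 45.4% and 39.6% of classified coding TPM. A 51-nt exon at chr1:62812534-62812584 was in 20.5% and 12.5% among transcripts with the Nrp2a tail. Both inserts are printed in capitals with 15 bases of flanking transcript on each side.
Nrp2 extension: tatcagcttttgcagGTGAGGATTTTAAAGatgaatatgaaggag
Nrp2 exon: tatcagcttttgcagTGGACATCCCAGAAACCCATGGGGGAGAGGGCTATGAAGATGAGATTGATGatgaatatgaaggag
Both keep the reading frame. They are not exclusive, since 1 coding transcript holds both, and most of the TPM with the extension carries the Nrp2b tail, so its bases after the extension differ from those printed.

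Epha7 is known to make truncated receptors that lack the kinase domain and that can turn repulsion into adhesion in the neural tube. A short transcript, with 10 coding exons and a coding length of 1830 nt, held 23.8% and 23.2% of classified coding TPM. The full-length transcript has 17 coding exons and 2994 nt. The capitals mark the codons of the last 3 residues in the final coding stretch of each, at chr4:28946219-28946250 and chr4:28963941-28964000 (mm10, plus strand).
Epha7 short end: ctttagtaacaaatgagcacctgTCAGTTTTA
Epha7 full-length end: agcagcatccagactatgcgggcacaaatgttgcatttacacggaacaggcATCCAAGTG
In TPM the short form was at 4.33 and 4.22, and the main full-length transcript at 12.2 and 12.8. A further short coding transcript with another end stood at 2.83 and 2.59 TPM and was not classified.

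Ephb2 and Epha3, on different chromosomes, share a 3-nt choice at the edge of exon 7. The optional codon is CAG in both, shown in capitals with its flanks.
Ephb2: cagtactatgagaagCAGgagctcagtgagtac
Epha3: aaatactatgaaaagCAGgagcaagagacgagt
It lies at chr4:136675531-136675533 in Ephb2 and chr16:63611106-63611108 in Epha3, both on the minus strand of mm10. In Ephb2 the codon was in 57.0% of coding TPM in replicate 1 and 75.7% in replicate 2. In Epha3 it was in 95.3% and 95%. Ephb4 had a larger in-frame extension of 27 nt at exon 7, present in 10.3% and 14.8%.

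Slit2 carries a pair of small in-frame exons, printed in capitals because each was neither constant nor rare. The 24-nt exon at chr5:48220967-48220990 was in 29.7% and 39.6% of coding TPM. The 12-nt exon at chr5:48191003-48191014 was in 71.3% and 63.8% (both mm10, plus strand).
Slit2 longer exon: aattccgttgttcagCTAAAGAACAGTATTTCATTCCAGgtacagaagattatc
Slit2 shorter exon: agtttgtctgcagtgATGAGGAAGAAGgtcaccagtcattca
The Slit2 transcript with both exons was at 3.09 and 4.15 TPM. That with neither was at 2.99 and 3.79 TPM, and that with the 12-nt exon alone at 4.32 and 2.53 TPM. The transcripts with both exons and with neither were thus at similar levels in each library.

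The related netrin receptors Unc5b and Unc5c each have an optional coding segment at exon 8 of the longer form. The Unc5b transcript with a 33-nt exon at chr10:60777185-60777217 (minus strand) held all classified coding TPM, and the transcript without it had 0 reads in both libraries. In Unc5c a 57-nt exon at chr3:141786857-141786913 (plus strand) was in 0% and 0.643%, on 0 and 4.26 expected reads. A further Unc5c transcript, annotated for nonsense-mediated decay and so not classified, also holds that exon and stood at 1.52 and 1.39 TPM, against 9.71 and 9.27 TPM for the coding transcript without it.
Unc5b exon: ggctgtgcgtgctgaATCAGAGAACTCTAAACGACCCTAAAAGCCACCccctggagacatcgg
Unc5c exon: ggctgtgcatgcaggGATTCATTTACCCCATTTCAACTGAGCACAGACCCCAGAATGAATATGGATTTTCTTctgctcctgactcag
The optional exon is in capitals. Dcc divided evenly over a 60-nt extension of exon 17, with 50.4% and 51.9% holding it. Those shares rest on 137 and 113 expected reads for the longer form.

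Sema6d, a membrane-bound semaphorin, differed most. A 57-nt exon of Sema6d at chr2:124660705-124660761 (plus strand) was in 83.7% of coding TPM in replicate 1 and 52.2% in replicate 2, the widest gap between the libraries among the coding choices described.
Sema6d exon: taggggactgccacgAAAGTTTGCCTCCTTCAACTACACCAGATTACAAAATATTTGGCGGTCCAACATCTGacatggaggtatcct
It rested on 510 and 280 expected reads with the exon, in capitals, and 104 and 268 without it. A 93-nt exon of Sema3f differed less, at 27.2% and 20.8%.

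**Figure D4:**
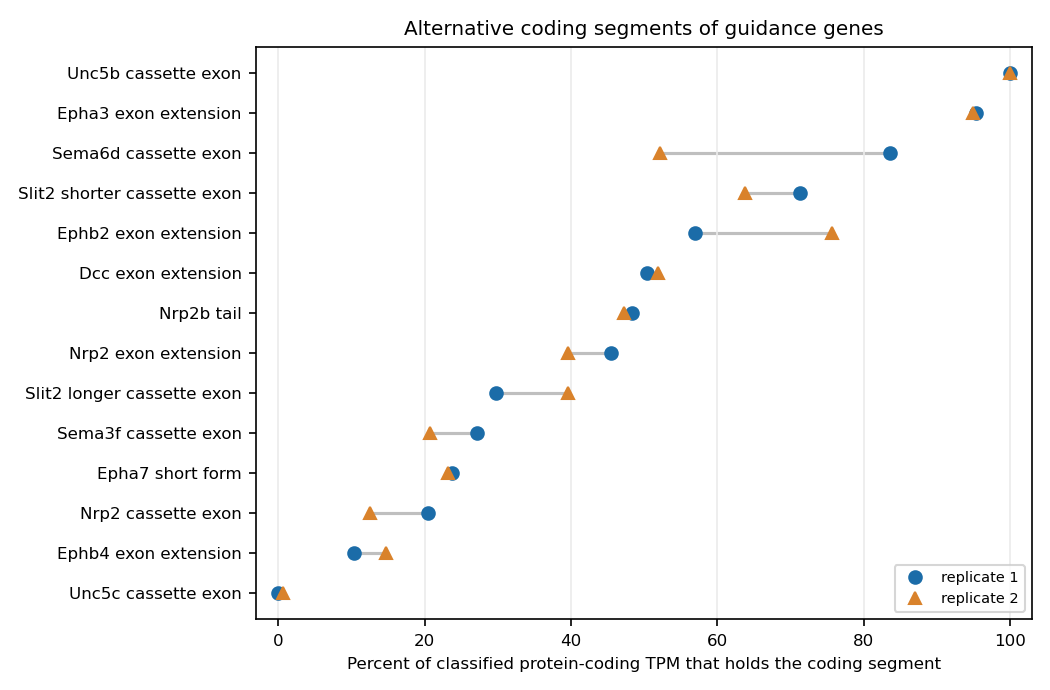
Percent of classified protein-coding TPM that holds each alternative coding segment in replicate 1 (circles) and replicate 2 (triangles). Most segments lie within 10 points between the libraries, and those of Sema6d and Ephb2 are furthest apart.

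No guidance gene was called different between the libraries, at an adjusted p under 0.05 and 2-fold in TPM by a binomial test on reads (exact, two-sided), against 1.02% of all 15926 genes tested. The test covered 59 members and compares these libraries, not conditions. An unadjusted p under 0.05 was reached by 29 of these 59 members, against 29.5% of all genes, so more often among the members. With edgeR's exact test 5 members had an unadjusted p under 0.05, against 1015 of all genes tested. After adjustment there were 0 members, against 178 of all genes tested. The members' median difference was −0.08 on the log2 scale, against 0.01 over all genes tested.

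The binomial test weighs differences against counting error only, not against the spread between pools, and 0 members passed adjustment in edgeR's exact test, which includes a dispersion. That dispersion was estimated from the same 2 libraries taken as replicates, so it already holds the differences being tested. The edgeR result is therefore no independent check against the spread between pools. By binomial adjusted p alone, 20 of the 59 tested members were lower in replicate 2, against 10.5% of all genes. Of the 59, 2 were higher, against 8.51%. These directions are those of the reads scaled to library size, and the TPM ratio of Robo1, lower by reads, lay slightly the other way at 0.02 on the log2 scale. Ntn1 was lower by a log2 difference of −0.44 (exact binomial adjusted p = 5.48e-08). Epha3 was lower by −0.40 (exact binomial adjusted p = 3.24e-20), and Sema5a by −0.42 (exact binomial adjusted p = 3.73e-20). The members higher in replicate 2 were Epha7, with 0.19 on the log2 scale, and Ephb2, with 0.33 (exact binomial adjusted p = 9.47e-05 and 2.25e-05).

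The libraries also differed in tissue markers. The 6 cartilage markers summed to 824 TPM in replicate 1 and 706 TPM in replicate 2. Of the 6, 3 were called lower, Acan, Matn1 and Snorc, where 1.02% of all genes were called in either direction. The 8 neuron and axon markers summed to 40.9 and 65.3 TPM, with Prph and Nefl called higher and Elavl3 at 0.01 and 0.18 TPM. Dcx, of the same list, went the other way at 8.14 and 7.11 TPM, and Elavl3 was not tested. By adjusted p alone 6 of the 7 tested were higher and 1 lower, against 8.51% and 10.5% of all genes. In the other marker lists no gene was called. Tbx5, a forelimb marker, was at 40.0 and 28.4 TPM, and Pitx1, a hindlimb marker, at 136 and 164 TPM. Their part in the differences of the guidance genes was not tested.

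**Figure D5:**
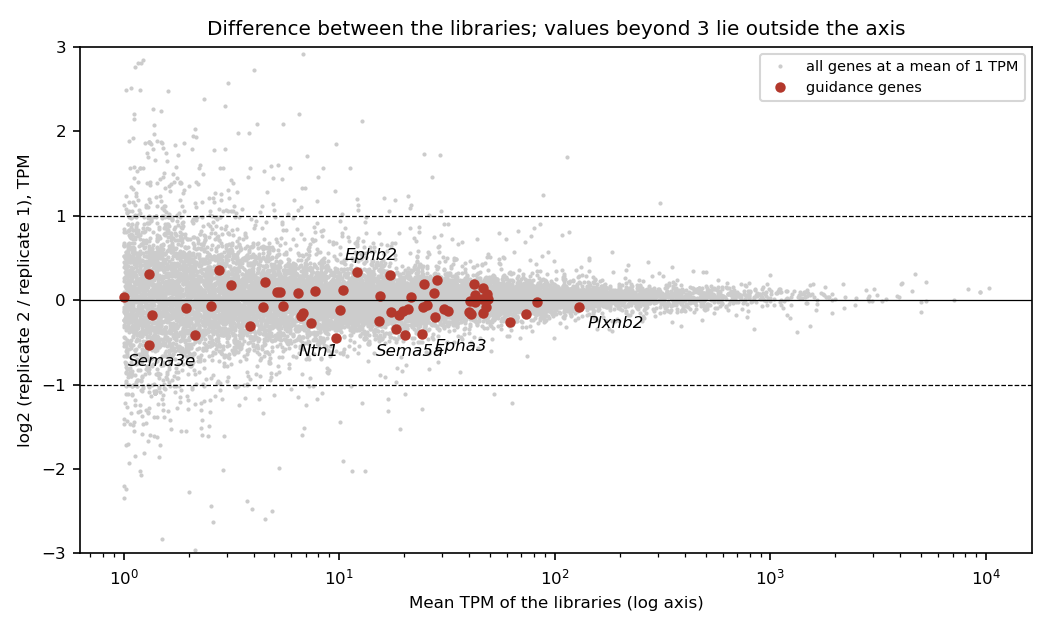
Log2 ratio of replicate 2 over replicate 1 in TPM against mean TPM (log axis) for all genes at a mean of 1 TPM (grey) and the guidance genes among them (red), with dashed lines at 2-fold. All red points lie between the dashed lines, and Sema3e, Ntn1, Sema5a and Epha3 lie lowest among the labelled ones.

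The older GENCODE M4 tables of the same libraries gave similar levels. Of 68 members with an entry, 58 could be compared, and 0 differed 2-fold in mean TPM, against 3.44% of all genes. At 1.5-fold there were 3, for which no share over all genes is given. Sema3a was at 46.4 TPM with M21 and 27.7 TPM with M4, Nrp1 at 40.6 and 25.8 TPM, and Sema4g at 5.29 and 3.14 TPM. With M4, therefore, Sema3f lay above Sema3a, past the spread. Ntn3 was not compared.

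Signalling partners of each system, among them intracellular, cell-surface and secreted ones, were mostly detected, from lists of known partners. For comparison, 58.1% of all protein-coding genes reached 1 TPM in both libraries. For Eph and ephrin signalling 22 of 24 partners were detected at 1 TPM, and the highest were the adaptor Grb10 (468, 435) and Sdcbp (238, 249), which binds B-class ephrin tails. Nck1, an adaptor to actin, was at 54.5 and 56.0 TPM, and Ngef, an Eph-bound exchange factor of the nervous system, was lowest at 0.19 and 0.17 TPM. Of the semaphorin partners 21 of 25 were detected. Dpysl2, a microtubule-binding effector of Sema3a, was at 188 and 241 TPM, Itgb1, an integrin subunit that Sema7a signals through, at 168 and 161 TPM, and Rnd1, a plexin-binding GTPase, lowest at 0.42 and 0.19 TPM.

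Slit and Robo partners were detected in 18 of 18 cases. Cdc42, the GTPase that srGAPs act on downstream of Robo, led at 484 and 470 TPM. It was followed by Gpc1, a glypican that binds Slit, at 68.7 and 65.6 TPM, and Evl, an actin regulator of the Ena/VASP family, at 58.1 and 57.9 TPM. Nell1 was lowest at 1.60 and 2.08 TPM. Of 17 netrin partners found, 12 were detected, with Rac1 (347, 319), Ptk2 (82.4, 81.6) and Trio (57.5, 65.7) on top and Trim67 lowest at 0.01 and 0.04 TPM. Cntn2, a neuronal adhesion molecule listed with the semaphorin partners, was the only partner called between the libraries, where 1.02% of all genes were, at 0.59 TPM in replicate 1 and 1.71 TPM in replicate 2. By adjusted p alone, with no minimum fold, 2 Eph and ephrin partners were higher in replicate 2 and 4 lower, of 22 tested, against 8.51% and 10.5% of all genes. For semaphorin partners the counts were 3 and 6 of 24, for Slit and Robo partners 2 and 8 of 18, and for netrin partners 2 and 4 of 12.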

How the data were processed

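The labels name the libraries biological replicates of 1 tissue and age, and nothing states whether the pools share litters, so differences measure the spread between these pools. The authors deposited, for genes and for transcripts, expected counts (estimated reads that need not be whole) and TPM, and for genes also FPKM, both normalised by them for length and depth. Each library was quantified on mm10 with GENCODE M21, used here, and with M4, per the deposited file lists. Neither aligner nor counting program is named, and strand use was not given in the sources used here.

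Members, pairs, gene lists and naming rule were chosen with earlier results of these data known. The rule for named genes took, in each family, the 4 most abundant members, the lowest, those under 1 TPM in either library, members of the pairs, called members and those with a further transcript of 25%. Of each partner list it took the 3 most abundant, the lowest and any called. Neo1, Gipc1, Tbc1d24, Zyx, Tbx5, Pitx1 and the coding segments were chosen after their values were seen.

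Library sizes omit tRNA entries and spike-ins, the latter 3.19% and 2.24% of reads. Expected counts were rounded, scaled by TMM (edgeR 4.0.16, R 4.3.3) and compared by an exact two-sided binomial test over genes at a mean of 1 TPM, with Benjamini-Hochberg adjustment. DESeq2 1.42.0 size factors, edgeR's exact test with a common dispersion, M4, FPKM, other minima, counts without length and either library alone were alternatives. Transcripts, coordinates and sequences come from GENCODE M21. A segment's share is the TPM of complete protein-coding transcripts that hold it over that of those that can be classified. Scripts were tested on simulated data, where the binomial test recovered 94.9% of 99 genes changed 3-fold among 15926. The limit of 3 reads covers counting error only.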

Additional observations from a re-analysis of the deposited data

How the results depend on the processing

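The count of detected members, 58, lay between 46 and 59 under other minima of TPM, with M4, with FPKM, with either library alone and with coding transcripts only. No member was called between the libraries under any of the 8 alternatives run. Over all genes the calls under these alternatives ranged from 36 at a mean of 5 TPM to 416 at 1.5-fold. The count of pairs past the spread, 22, lay between 19 and 24. Members differing between annotations numbered 0 at 2-fold, against 3.44% of all genes, and 3 at 1.5-fold, where no such share is given. Members with a further transcript of 25% numbered 10, or 36 at a minimum of 10%, and between 13 and 17 with 1 library left out. The log2 ratio of Efna2 over Efna5 reversed to −0.33 on counts not divided by length. With M4 that of Sema3a over Sema3f reversed to −0.61 and that of Sema3c over Sema3a to 0.10, and with coding transcripts only, an alternative chosen after seeing the data, that of Unc5b over Unc5c reversed to 0.090. The cause of these reversals was not tested. The calls of Efnb1 over Efnb2, Sema3a over Sema3c and Unc5c over Unc5b were lost at the 99th percentile of the spread, and that of Sema5a over Sema5b with M4, at a log2 ratio of 0.83. The 12-nt exon of Robo2 was in 0% of complete coding TPM but in 43.5% and 44.2% with all coding transcripts, also chosen after seeing the data. Mean TPM moved by more than the SD between libraries for 28 members with M4 and for 36 with coding transcripts only. No paired analysis was possible because there is 1 group. With 2 pools the SD of a member is imprecise, and members under 1 TPM rest on few reads, down to 0 for Robo3.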
